A study of Mus musculus with 12 samples.

Results

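The 7 genes described here encode the contractile apparatus of smooth muscle: Acta2, Actg2, Cnn1, Tagln, Myh11, Mylk and Des. They were found as every probe set whose platform annotation gives 1 of these symbols, which left 10 probe sets of the 16376 in the table, 3 of them for Mylk, 2 for Des and 1 for each other gene. The table pairs 10949 genes with a probe set of their own. Ovaries of 12 female mice were profiled at 23 weeks of age, at diestrus, on 1 array each. The 6 controls carried Pgrcre/+ alone, a Cre allele at the progesterone receptor gene, and had no tumor. The other 6 mice were Pgrcre/+PgrBLsL/+, of which 3 had a tumor at stage I and 3 at stage II. Every mouse carried the Cre allele, so no ovary without Cre is in the comparison. Every ovary with PgrBLsL had a tumor stage while controls had none, so allele and tumor cannot be told apart here. Pgr itself ran from 3.74 to 4.60 in controls and stood at 9.05 or more in every PgrBLsL ovary (log2), a split along the genotype labels. All levels are the deposited log2 values, and a difference of 1 is a doubling. The titles call the samples bioreplicates, and their number limits the precision.

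Smooth muscle cells contract when calcium, through calmodulin, activates myosin light chain kinase, which phosphorylates myosin and lets it pull on actin filaments. Calponin and transgelin bind those filaments, and desmin filaments tie the apparatus to the cell's dense bodies. In the ovary such cells lie in the walls of blood vessels, in the theca externa around follicles and in the stroma, and pericytes and activated fibroblasts can also make smooth muscle actin. The genes are classical targets of serum response factor (SRF), which binds the CArG box in their promoters, and of its co-activator myocardin. The arrays measured whole ovaries, so fewer cells of a type and less RNA per cell cannot be told apart.

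RefSeq (GRCm38.p6) gave promoters for 4 of the 7 genes, Acta2, Cnn1, Mylk and Des. The promoters of Acta2, the vascular actin, and of Cnn1, the gene with the largest fall, are printed to show the sequences that lie before 2 genes that both fell in stage II. Each runs 5′ to 3′ over the 250 bases before the transcription start, with Acta2 at chr19:34255374-34255623 on the minus strand and Cnn1 at chr9:22099003-22099252 on the plus strand.
Acta2: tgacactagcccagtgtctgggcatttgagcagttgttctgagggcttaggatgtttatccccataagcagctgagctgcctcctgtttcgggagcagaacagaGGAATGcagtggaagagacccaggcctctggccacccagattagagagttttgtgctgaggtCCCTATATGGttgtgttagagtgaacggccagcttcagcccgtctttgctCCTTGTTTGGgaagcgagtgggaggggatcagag
Cnn1: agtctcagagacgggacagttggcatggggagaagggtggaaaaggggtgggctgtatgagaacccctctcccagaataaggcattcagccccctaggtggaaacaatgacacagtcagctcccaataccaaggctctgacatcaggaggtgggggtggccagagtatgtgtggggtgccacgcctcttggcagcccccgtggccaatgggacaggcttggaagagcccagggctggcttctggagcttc
Capitals mark matches to 3 motifs searched on both strands: the CArG box by its name, an imperfect CArG box in which 1 inner base is C or G, and CATTCC, the core bound by TEAD factors. The Acta2 promoter held 2 imperfect CArG boxes, CCCTATATGG from -84 to -75 and CCTTGTTTGG from -34 to -25, and GGAATG, which is CATTCC on the other strand, from -146 to -141. The Mylk promoter held CATTCC from -158 to -153. None of the 3 motifs lay in these windows of Cnn1 or Des. Among 32851 promoters of the same length, 1.47% held a CArG box, 7.24% an imperfect one and 12.6% CATTCC. These matches describe letters in the window and no binding.

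**Figure D1:**
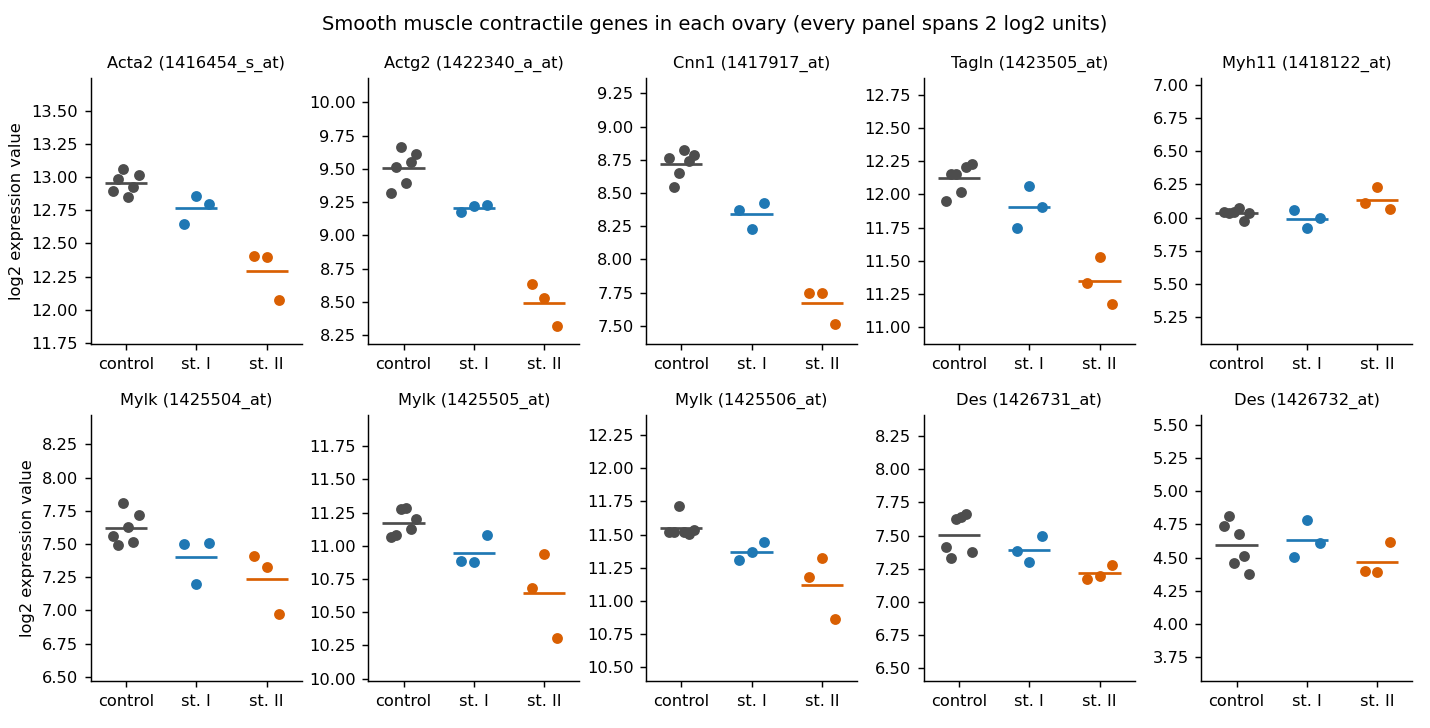
Log2 expression value of each of the 10 probe sets (panels) in each ovary, with controls in grey, stage I in blue and stage II in orange. Points are single ovaries and lines are group means. In Actg2 and Cnn1 the 3 groups do not overlap and fall from control to stage I to stage II, while Myh11 stays between 5.92 and 6.23.

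The actins fell in stage II. Acta2 encodes the actin of vascular smooth muscle and Actg2 that of visceral smooth muscle. Acta2 (probe set 1416454_s_at) stood at 12.85, 12.95 and 13.06 in controls (lowest, median and highest of 6), at 12.65, 12.85 and 12.79 in stage I, and at 12.41, 12.40 and 12.07 in stage II. Every stage II ovary lay below all others, while stage I replicate 2 reached the lowest control. The Acta2 level in stage II was 63.3% of that in controls (log2 difference -0.66 ± 0.08 SE, limma adjusted p = 0.000182). In stage I the Acta2 difference was -0.19 ± 0.08 (adjusted p = 0.784).

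Actg2 (1422340_a_at) had a control range of 9.32 to 9.67 with a median of 9.53. Its stage I values were 9.17, 9.22 and 9.23, and its stage II values were 8.63, 8.53 and 8.31. All 3 groups stood apart, in falling order. Actg2 in stage II was at 49.4% of control, 2.02-fold lower (log2 -1.02 ± 0.09 SE, adjusted p = 8.89e-06), and 0.72 ± 0.10 below stage I on the log2 scale (II minus I -0.72, adjusted p = 0.00132). Its stage I difference, -0.30 ± 0.09, did not pass (adjusted p = 0.471). Actin genes have near-identical coding sequences, and whether these probe sets also read other actins was not tested. The other actin genes are described further on.

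The regulators of the thin filament, Cnn1 and Tagln, fell as well. Cnn1 encodes calponin, which binds actin and restrains the myosin ATPase. Its probe set (1417917_at) stood at 8.54, 8.75 and 8.82 in controls (lowest, median, highest), at 8.37, 8.23 and 8.43 in stage I and at 7.75, 7.75 and 7.51 in stage II. The groups again did not overlap and fell in order. Cnn1 had the largest fall of the 10 probe sets, to 48.3% of control in stage II, or 2.07-fold lower (log2 -1.05 ± 0.08 SE, adjusted p = 3.07e-06). From stage I to stage II it fell by 0.67 ± 0.09 on the log2 scale (adjusted p = 0.0011), and its stage I difference of -0.37 ± 0.08 did not pass (adjusted p = 0.145).

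Tagln encodes transgelin, or SM22, an actin-bundling protein and an early marker of smooth muscle. Its values (1423505_at) were 11.95, 12.16 and 12.23 at the lowest, median and highest control, 11.75, 12.07 and 11.90 in stage I, and 11.33, 11.53 and 11.17 in stage II. Stage II lay below every other ovary and stage I overlapped the controls. Tagln in stage II was at 58.4% of control (log2 -0.78 ± 0.09 SE, adjusted p = 0.000138) and differed from stage I by -0.56 ± 0.11 (adjusted p = 0.00811). The stage I difference was -0.21 ± 0.09 (adjusted p = 0.786).

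Of the motor genes, Mylk fell in stage II and Myh11 did not pass in any comparison. Mylk encodes myosin light chain kinase and, from an internal promoter, the short protein telokin. Probe set 1425505_at had controls from 11.06 to 11.28 (median 11.16), values of 10.89, 10.88 and 11.08 in stage I, and of 10.68, 10.94 and 10.31 in stage II. Probe set 1425506_at had controls from 11.51 to 11.71 (median 11.52), stage I ovaries at 11.31, 11.37 and 11.44, and stage II ovaries at 11.18, 11.32 and 10.86. The third probe set, 1425504_at, had controls from 7.50 to 7.81 (median 7.59), stage I ovaries at 7.50, 7.20 and 7.51, and those of stage II at 7.41, 7.32 and 6.98. In all 3 probe sets every stage II ovary lay below every control, but 1 or more overlapped stage I, and stage II replicate 3 was the lowest ovary of the 12. Mylk levels in stage II were 69.2% (1425505_at, log2 -0.53 ± 0.11 SE, adjusted p = 0.00708), 74.2% (1425506_at, -0.43 ± 0.09, adjusted p = 0.00586) and 76.5% of control (1425504_at, -0.39 ± 0.11, adjusted p = 0.0275). The call of 1425504_at ended without stage II replicate 3 (-0.26, adjusted p = 0.167) and without control replicate 3 or 6 (adjusted p = 0.0526 and 0.0525). None of the Mylk probe sets passed in stage I (-0.18 to -0.22, adjusted p from 0.846 to 0.864) or between stages (-0.17 to -0.31, adjusted p from 0.145 to 0.453).

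Myh11 encodes the smooth muscle myosin heavy chain, the most specific protein of the lineage. Its single probe set (1418122_at) stood at 5.97, 6.04 and 6.07 in controls (lowest, median, highest), at 6.05, 5.92 and 6.00 in stage I and at 6.11, 6.23 and 6.07 in stage II. Stage II overlapped the controls and lay above every stage I ovary. The stage II difference was 0.10 ± 0.06 SE with a 95% interval from -0.02 to 0.22 (adjusted p = 0.238), and stage II minus stage I was 0.14 ± 0.06 (adjusted p = 0.177). A fall of the size seen in Mylk lies outside that interval for this probe set. The values lie below the array medians of 7.09 to 7.15, background was not measured, and neither its target transcripts nor other Myh11 probe sets were analysed here.

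Desmin, the muscle intermediate filament protein encoded by Des, was read by 2 probe sets. One of them (1426731_at) stood at 7.33, 7.52 and 7.66 in controls, at 7.39, 7.30 and 7.50 in stage I and at 7.18, 7.20 and 7.28 in stage II. Stage II lay just below all other ovaries, at 81.8% of control (log2 -0.29 ± 0.09 SE, adjusted p = 0.0351). It no longer passed when any of control replicates 3, 4 and 5 or of the stage II ovaries was left out (adjusted p up to 0.109). The stage I difference was -0.11 ± 0.09 (adjusted p = 0.945). The other (1426732_at) had controls from 4.38 to 4.81, stage I from 4.50 to 4.78 and stage II from 4.39 to 4.61, which all overlap (stage II minus control -0.13 ± 0.10, adjusted p = 0.443).

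**Figure D2:**
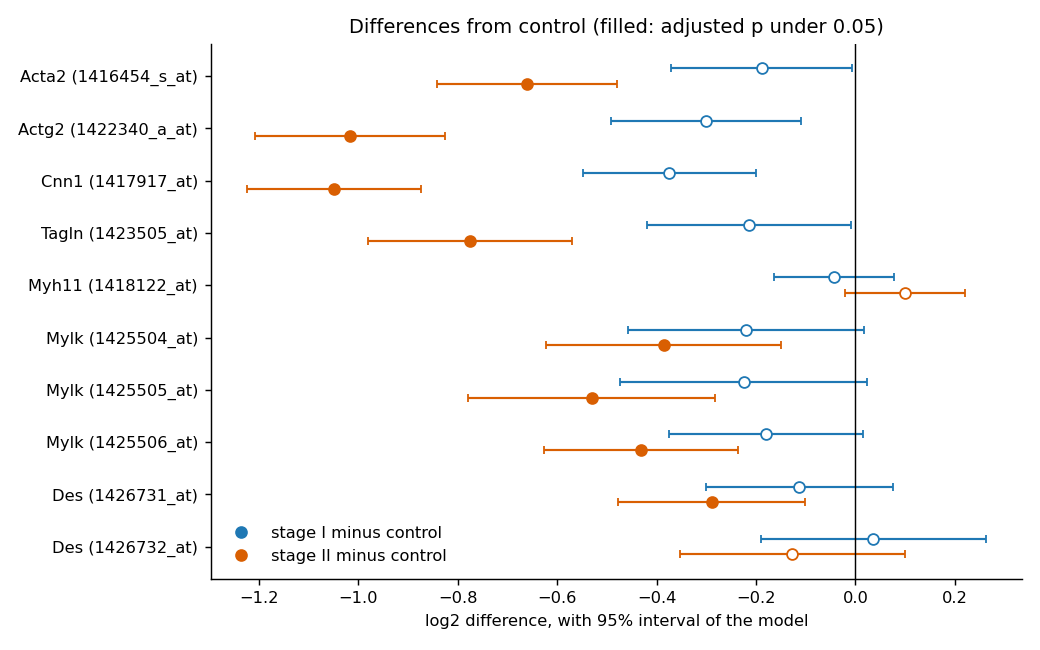
Log2 difference from control of each probe set in stage I (blue) and stage II (orange), with the 95% interval of the model. Filled points passed the adjusted p of 0.05: 0 in stage I and 8 in stage II, where Cnn1 (-1.05) and Actg2 (-1.02) lie farthest to the left and Myh11 lies at 0.10.

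By comparison, stage II against control called 8 of the 10 probe sets lower and 0 higher, which is 6 of the 7 genes, where 10.1% of all probe sets were called lower and 9.25% higher. In the same 8 probe sets every stage II ovary lay below every control, against 11% of all probe sets. The median difference of the 10 was -0.48, and -0.01 over all probe sets. Without stage II replicate 3 the Acta2, Actg2, Cnn1 and Tagln calls held, as they did without any other single array.

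Stage I against control called 0 of the 10 with limma, where 0% of all probe sets were called lower and 0.195% higher. Without adjustment, 4 of the 10 were lower at p under 0.05 (Acta2, Actg2, Cnn1 and Tagln), where 2.69% of all were. Of the 10, 9 were below 0 with a median of -0.20 (0.00 over all). Cnn1, Actg2 and 1 Mylk probe set (1425506_at) lay below all controls in every stage I ovary, 3 of 10 where 1.42% of all probe sets did so. The comparisons of both stages with control share those 6 ovaries.

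Stage II against stage I, which needs no control, called 4 of the 10 lower and 0 higher: Acta2 (-0.47 ± 0.10 SE, adjusted p = 0.0105), Actg2, Cnn1 and Tagln. Over all probe sets 4.92% were called lower and 6% higher. In 5 of the 10 every stage II ovary lay below every stage I ovary, and in Myh11 above, where 16.2% and 14.4% of all probe sets did so. The median of the 10 was -0.28, and -0.01 over all. When the 6 ovaries of both stages were fitted alone the count was 2, with Acta2 and Tagln not passing (adjusted p = 0.0697 and 0.0555). The Acta2 call also ended without the 3 ovaries highest in Ovgp1 (adjusted p = 0.0654).

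The mean of both stages was also compared with control, as the genotype difference. It called 6 of the 10 lower and 0 higher, in 5 of the 7 genes, where 1.84% of all probe sets were called lower and 4.48% higher. Cnn1 (-0.71 ± 0.07 SE, adjusted p = 3.25e-05) and Actg2 (-0.66 ± 0.07, adjusted p = 0.000121) led, followed by Tagln (-0.49 ± 0.08, adjusted p = 0.00183) and Acta2 (-0.42 ± 0.07, adjusted p = 0.00224). The Mylk probe sets 1425505_at (-0.38 ± 0.09, adjusted p = 0.0318) and 1425506_at (-0.31 ± 0.07, adjusted p = 0.0271) passed too, but neither held when some single arrays were left out (adjusted p up to 0.0757 and 0.0662). In Cnn1, Actg2 and Mylk 1425506_at all 6 PgrBLsL ovaries lay below all 6 controls, where 0.55% of all probe sets did so. With 2 groups of 6 and 1 mean each the count was 0 (Cnn1 adjusted p = 0.0668, Tagln 0.124). Only 0.214% of all probe sets, 35 of 16376, had the 3 groups apart in falling order, and Actg2 and Cnn1 were the members among them.

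Within the groups the 7 genes did not vary as a block. Each ovary's deviation from its own group mean was correlated between genes over 12 arrays, with 1 probe set a gene, as a description: the arrays share RNA samples and normalization. The 21 pairs ran from r = -0.29 to 0.83 with a median of 0.16, and 15 were above 0. Acta2 went with Actg2 (r = 0.83), with Tagln (0.79) and with Mylk 1425506_at (0.83), while Cnn1 and Acta2 had r = 0.16. Among the stage II ovaries replicate 3 was the lowest in 8 of the 10 probe sets. Among the stage I ovaries replicates 1 and 2 were the lowest in 5 each, and replicate 3 in 0.

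Control replicates 1 and 4 went together in some of the probe sets and not in others. They were the lowest of the controls in Acta2 (12.89 and 12.85, with the next at 12.92), Actg2 (9.32 and 9.39) and Tagln (11.95 and 12.02), and among the 3 highest in Cnn1 (8.76 and 8.82). In Mylk 1425505_at replicate 1 was the lowest control (11.06) and replicate 4 the highest (11.28). Replicates 1 and 4 were also the highest controls in Star, the cholesterol carrier of steroid-making cells (1418728_at, 12.80 and 13.22, against 11.49 to 11.85 in the other controls). Without both, stage II against control called 5 of the 7 genes and the genotype comparison 4. The part of these ovaries' cell content in the values was not tested.

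**Figure D3:**
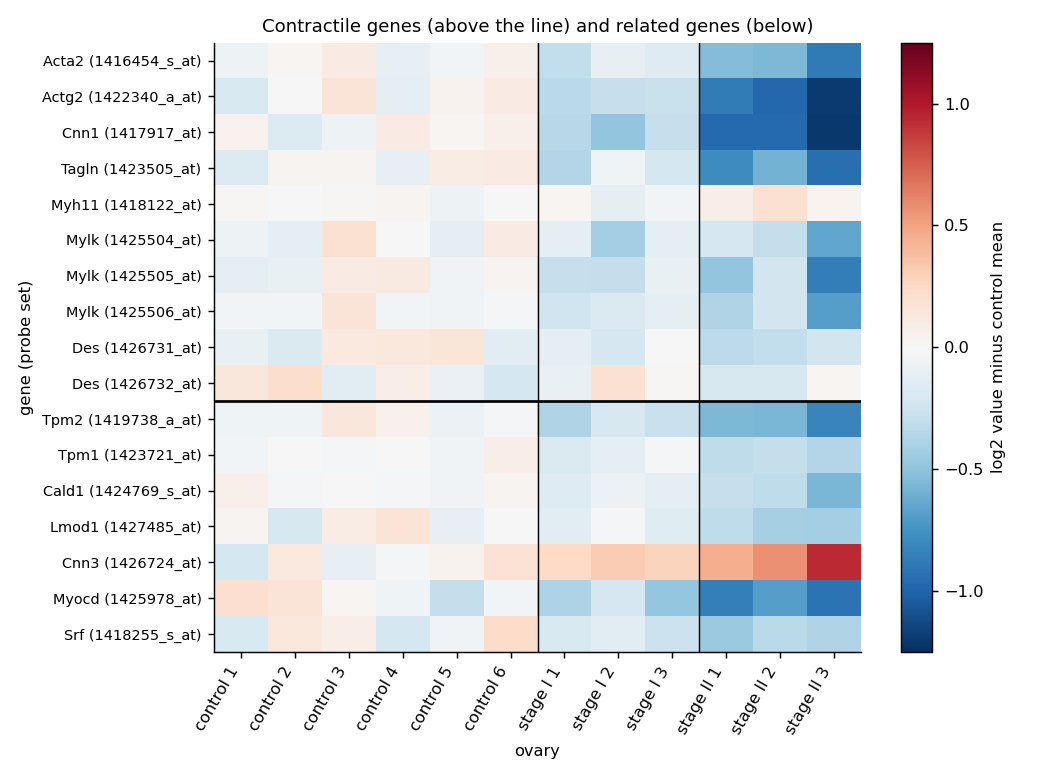
Log2 value minus the control mean of the 10 probe sets (above the line) and of 7 related genes, each by its brightest probe set (below), in each ovary (columns). Blue is lower and red higher than the control mean. Acta2, Actg2, Cnn1, Tagln and Tpm2 are bluest in stage II replicate 3, where Cnn3 is reddest.

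The other genes of the thin filament fell in part. Of 6 measured, 4 fell in stage II and 1 rose, which is 8 of 12 probe sets lower and 1 higher, with a median of -0.36. Over all probe sets 10.1% were called lower and 9.25% higher, so the 1 higher is near the share of the whole table. Tpm2, a tropomyosin that lies along actin (1425028_a_at), fell by 0.68 ± 0.08 SE on the log2 scale (adjusted p = 8.42e-05). Another Tpm2 probe set (1419738_a_at) ran from 11.25 to 11.46 in controls and stood at 10.94, 11.12 and 11.04 in stage I and at 10.75, 10.75 and 10.50 in stage II, so the 3 groups stood apart in falling order. The third (1419739_at) did not pass (-0.12 ± 0.09, adjusted p = 0.439). Cald1, caldesmon (1424770_at), differed by -0.59 ± 0.10 (adjusted p = 0.00201), Lmod1, the actin nucleator leiomodin, by -0.39 ± 0.08 (adjusted p = 0.00502), and Tpm1 (1423721_at) by -0.33 ± 0.05 (adjusted p = 0.00137). Cnn3, the calponin of non-muscle cells, rose 1.57-fold (log2 0.65 ± 0.11 SE, adjusted p = 0.00134). Its controls ran from 11.54 to 11.94, stage I stood at 12.01, 12.08 and 12.03 and those of stage II at 12.22, 12.33 and 12.69, so its groups stood apart in rising order. Calponin genes thus had Cnn1 lower and Cnn3 higher in the same ovaries. How many of all probe sets stood apart in rising order was not counted.

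Among 6 other actin genes limma called 0 of 7 probe sets in stage II, and 1 was lower at an unadjusted p under 0.05. That one was Actc1, cardiac actin (-0.27 ± 0.09, adjusted p = 0.0549), and it passed under several alternatives, such as quantile normalization. The cytoplasmic actins had differences of -0.12 ± 0.07 (Actg1, adjusted p = 0.278) and -0.11 ± 0.07 (Actb, adjusted p = 0.334). These 2 were chosen after their values were seen.

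Of 8 genes of the myosin motor and its phosphorylation 2 fell in stage II and 0 rose, in 2 of 14 probe sets, a share near the 10.1% of all probe sets called lower. Ppp1r12a, the targeting subunit of myosin phosphatase, differed by -0.30 ± 0.06 SE (adjusted p = 0.00336). Ppp1r14a, the phosphatase inhibitor CPI-17, differed by -0.65 ± 0.21 (adjusted p = 0.046), a call that ended without any of 7 arrays (adjusted p up to 0.213). Of 16 genes of intermediate filaments and dense bodies 4 fell and 3 rose, in 5 probe sets each of 25, where 10.1% of all were called lower and 9.25% higher. Csrp2, a LIM protein of smooth muscle, differed by -0.85 ± 0.16 (adjusted p = 0.00336). Fhl1, a LIM protein of striated muscle, rose 2.95-fold, from 10.92 to 11.18 in controls to 12.60, 12.77 and 12.51 in stage II (log2 1.56 ± 0.16 SE, adjusted p = 4e-05). Dtna, dystrobrevin (1419223_a_at, 0.93 ± 0.12, adjusted p = 0.000289), and Cryab, a small heat shock protein (0.92 ± 0.12, adjusted p = 0.000194), also rose. Without stage II replicate 3 the intermediate filaments and dense bodies list had 2 fallen genes and 3 risen, where 3.54% of all probe sets were called lower and 6.16% higher.

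Of 11 genes of calcium and membrane excitability 2 fell and 0 rose, in 2 of 16 probe sets, again near the 10.1% of the whole table. Mrvi1 encodes a substrate of cGMP-dependent kinase that associates with the inositol trisphosphate receptor. Mrvi1 stood from 7.40 to 7.76 in controls, at 7.43, 7.28 and 7.51 in stage I, and at 7.11, 7.15 and 6.34 in stage II (-0.68 ± 0.15 SE, adjusted p = 0.00994). Pln, phospholamban, differed by -0.37 ± 0.11 (adjusted p = 0.0335), a call that ended without any of 5 arrays (adjusted p up to 0.151).

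The regulators of these genes moved both ways, with 4 of 15 genes lower and 2 higher in stage II (6 and 3 of 26 probe sets, where 10.1% and 9.25% of all were called). Without stage II replicate 3 the counts were 1 lower and 1 higher, where 3.54% and 6.16% of all probe sets were called. Myocd, which encodes myocardin, fell by 0.82 ± 0.11 SE on the log2 scale (1425978_at, adjusted p = 0.00022). Its controls ran from 7.83 to 8.35, stage I stood at 7.75, 7.92 and 7.65, and the stage II ovaries lay at 7.28, 7.44 and 7.20, below every other ovary. Srf differed by -0.39 ± 0.10 in 1 probe set (1418255_s_at, adjusted p = 0.014) and by 0.01 in the other (1418256_at, adjusted p = 0.924), and the first call ended without stage II replicate 1 or 3 (adjusted p up to 0.0599). Hand2, a transcription factor of mesenchyme, rose from 4.05 to 4.39 in controls to 6.48 to 6.51 in stage II (log2 difference of deposited values 2.28 ± 0.15 SE, adjusted p = 9.9e-07). Its control values lie near the floor of the table, where background was not measured, so no fold is given. Gata6 rose by 0.47 ± 0.12 (1425463_at, adjusted p = 0.0193), and no longer passed without stage II replicate 1 or 3. In stage I, 0 genes of these 6 lists passed.

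**Figure D4:**
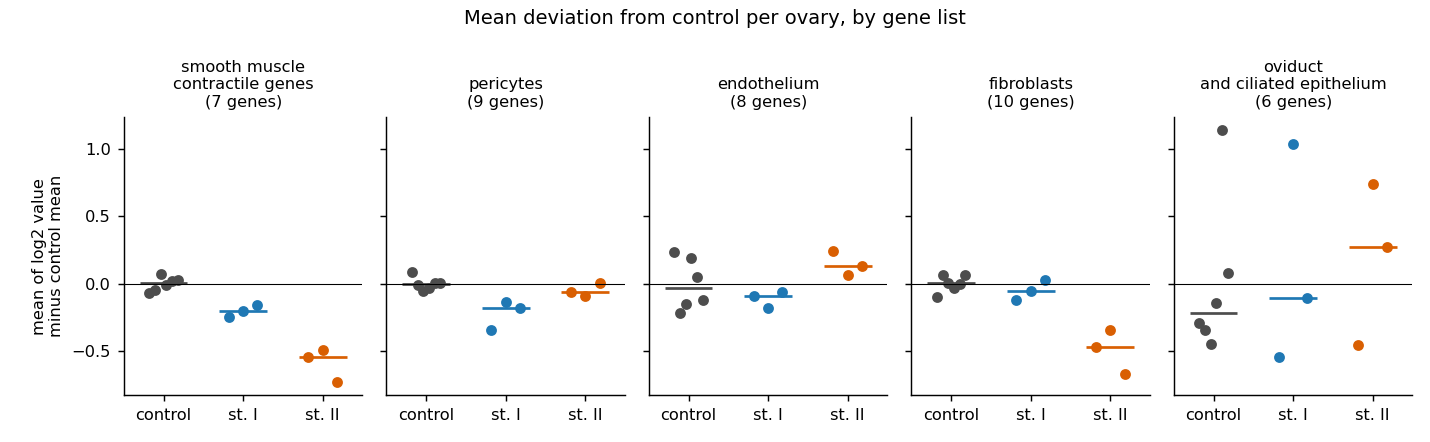
Mean over a list's genes of the log2 value minus the control mean, per ovary (points) and as the group median (lines), for the contractile genes and 4 lists of cell type markers. The contractile genes lie between -0.73 and -0.49 in stage II and the fibroblast markers between -0.67 and -0.35, while in stage II pericyte markers lie between -0.09 and 0.00 and endothelial markers between 0.07 and 0.25.

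Markers of other cell types that make or surround smooth muscle were set beside the 7 genes as a mean deviation from control per ovary. The contractile genes scored from -0.07 to 0.08 in controls, from -0.24 to -0.16 in stage I and from -0.73 to -0.49 in stage II, so the 3 groups stood apart. Pericyte markers scored from -0.06 to 0.09, from -0.35 to -0.13 and from -0.09 to 0.00. Of the 9 pericyte genes 1 fell in stage II, in 1 of 13 probe sets, near the 10.1% of the whole table. It was Kcnj8, a potassium channel (-0.45 ± 0.14 SE, adjusted p = 0.0459), and that call ended without any of 9 arrays. Rgs5, a defining pericyte marker that damps G protein signals, had stage II differences from 0.14 to 0.35 in its 4 probe sets, none of which passed. The median stage II difference of the 13 pericyte probe sets was 0.14. At an unadjusted p under 0.05 with limma, 3 of them were higher and 1 lower. Pericyte calls in stage II against control moved with the setting, with 3 genes lower and 2 higher under array weights, 2 and 2 without control replicates 1 and 4, and 0 lower and 1 higher without control replicate 1 or stage II replicate 2. In stage I against control 0 of the 13 pericyte probe sets passed, with a median difference of -0.28. Of these, 6 were lower at an unadjusted p under 0.05 with limma, where 2.69% of all probe sets were. From stage I to stage II, 5 of the 13 pericyte probe sets rose and 0 fell, where 6% of all were called higher and 4.92% lower. The rise was led by Rgs5 (1420941_at, 0.66 ± 0.15, adjusted p = 0.0145), Gja4, a vascular gap junction protein (0.47 ± 0.11, adjusted p = 0.0222), and Cspg4, the proteoglycan NG2 (0.42 ± 0.10, adjusted p = 0.0199). The calls of these 3 ended without stage II replicate 3, and also without 1 or more stage I ovaries (adjusted p up to 0.092).

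Endothelial markers scored from -0.22 to 0.24 in controls, from -0.18 to -0.06 in stage I and from 0.07 to 0.25 in stage II. Limma called 0 of 8 in stage II, and 2 had an unadjusted p under 0.05, both higher. Called higher were 3 without control replicates 1 and 4, 1 without control replicate 4 alone, and 4 with array weights. Stage II against stage I also called 0 endothelial genes, with 3 higher at an unadjusted p under 0.05, and gave the same 3 counts under these alternatives. Fibroblast markers scored from -0.10 to 0.06, from -0.12 to 0.03 and from -0.67 to -0.35. Of 10 fibroblast genes 8 fell in stage II and 0 rose, in 9 of 12 probe sets, where 10.1% of all were called lower and 9.25% higher. Among the fallen were Col1a2, a collagen I chain (-0.55 ± 0.07 SE, adjusted p = 0.000153), and Pdgfra, a growth factor receptor (1421917_at, -0.50 ± 0.11, adjusted p = 0.00842). The other Pdgfra probe set (1421916_at) overlapped, with controls from 7.10 to 7.56 and stage II at 7.40, 7.29 and 6.68. Without stage II replicate 3 the count of fallen fibroblast markers was 4, where 3.54% of all probe sets were called lower. Markers of theca and steroid-making stroma scored from -0.13 to 0.17 in controls and from -1.30 to -0.30 in stage II. Of 5 genes 3 fell there, such as Cyp17a1, a steroid hydroxylase (-2.68 ± 0.73 SE, adjusted p = 0.0237, and -1.29 without stage II replicate 3). Aldh1a1, a retinal dehydrogenase, rose (0.34 ± 0.08, adjusted p = 0.0113). Lower were 3 of 6 probe sets and higher 1, where 10.1% and 9.25% of all were called. Adipocyte markers scored from -0.84 to 0.50 in controls, a range that covers the stage II scores of -0.53 to -0.27. Of 6 adipocyte genes 3 fell in stage II, such as Adipoq, adiponectin (-3.34 ± 0.66 SE, adjusted p = 0.00414), and 1 rose, the fatty acid binding protein gene Fabp4 (1417023_a_at, 2.47 ± 0.45, adjusted p = 0.00251). That was 4 of 9 probe sets lower and 2 higher, against the same 10.1% and 9.25% of all. The part of these cell types in the fall of the contractile genes was not tested.

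The oviduct, a muscular tube beside the ovary, has Ovgp1 as its defining marker. Ovgp1 spread widely in every group, up to 12.70 in control replicate 5, 11.77 in stage I replicate 2 and 11.58 in stage II replicate 2, and down to 5.94 in stage II replicate 1. Without the 3 highest of these ovaries the contractile genes called were 5 of 7 in stage II against control and 3 in stage II against stage I. Among 8 skeletal muscle genes 0 fell in stage II and 1 rose, in 2 of 9 probe sets, where 9.25% of all were called higher. That gene was Myh1, which rose from near the floor (1427520_a_at, limma adjusted p = 0.0105). Its controls stood at 3.16 ± 0.09 SD (n = 6) and stage II at 3.83, 3.91 and 5.67.

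The genes most like the 7 were sought among 10359 other genes over 12 arrays. The 7 genes' values minus their control means were averaged into 1 profile. By deviations from own group mean, the highest correlations were those of Col3a1, collagen III (r = 0.95, and 0.91 without stage II replicate 3), Ctcf (0.95 and 0.88), Ube2r2 (0.95 and 0.93), Ppil4 (0.94 and 0.84), Mmp14 (0.94 and 0.89) and Tspan14 (0.94 and 0.85). By mean absolute distance, the nearest were Myom1 (0.058), Fstl1 (0.058), Tpm2 (0.060), Ssbp3 (0.062), Mrc2 (0.075) and Tspan2 (0.076), in log2 units. The 2 measures shared none of their 6 genes. The correlations are the highest of 10359, without a baseline, and leave out differences between groups. In stage II Ppil4 differed by -0.11 ± 0.07 SE and did not pass (limma adjusted p = 0.27), while the others named by correlation passed. The Ctcf call (adjusted p = 0.0453) ended without any of 11 arrays. Myom1, the sarcomeric protein myomesin, differed by -0.23 ± 0.08 SE in stage I and by -0.66 ± 0.08 in stage II. Myom1 was picked for its nearness to the profile, so these differences follow from that choice. Without stage II replicate 3 its correlation with the profile, by deviations from own group mean, was r = 0.29.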

How the data were processed

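Total RNA of 12 ovaries was measured on 1-colour arrays, per the labels. The authors deposited log2 values, 1 per probe set and array, from 2.69 to 14.44, with array medians from 7.09 to 7.15, and how they were summarised and normalised is not stated in the sources used here. The table holds 16376 probe sets, part of the array's names, and 0 columns were unmapped. Platform annotation gave 14674 probe sets 1 symbol. Correlations between arrays ran from 0.967 to 0.997, and 0 pairs were identical. One mean per group was fitted with limma 3.58.1 (lmFit and eBayes, R 4.3.3) to every probe set over all 12 arrays, with 9 residual degrees of freedom, with Benjamini-Hochberg adjustment over the whole table and a threshold of 0.05. The code was tested on simulated data. The 7 genes, the related lists and the alternatives were chosen with earlier results of these data known. Named genes are all probe sets of the 7, from each list up to 4 passing genes with the largest change in a comparison (up to 2 where none passed), and the 6 most alike by each of 2 measures; the text gives part of them. Promoters came from RefSeq. Alternatives were quantile normalization, centred medians, a filter on the dimmest 25 percent, 1 probe set or the mean per gene, array weights, fits of only the groups compared (for genotype, all arrays with both stages as 1 group), a robust and trended prior, the replicate block, and arrays left out.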

Additional observations from a re-analysis of the deposited data

Results flagged for a closer look

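In 84 probe sets the highest and lowest control were set against the other controls. They were those of the 7 genes, of the named list genes and of the genes picked for likeness. Of the 84, 5 had an ovary far from the rest, where chance gives about 1 in 20 such groups. In Mylk (1425506_at), the 1 such case among the 10 probe sets of the contractile genes, control replicate 3 at 11.71 stood above the next control, 11.53, by a gap that was 0.876 of the control range. Cald1 (1424770_at) had control replicate 4 at 10.67 above 10.39 (0.721 of the range), and Fhl2 (1419184_a_at), a LIM protein of muscle, had the same ovary at 9.17 below 9.57 (0.733). Foxj1 (1425291_at), the regulator of motile cilia, had control replicate 5, the ovary highest in Ovgp1, at 5.78 above 5.28 (0.644). Myh1 (1427520_a_at) had control replicate 3 at 3.00 below 3.17 (0.670), near the floor of the table.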

How the results depend on the processing

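The counts of genes called among the 7 were 5 for genotype, 0 for stage I, 6 for stage II and 4 for stage II against stage I. With each array left out in turn they ranged from 4 to 5, 0 to 0, 5 to 6 and 4 to 5. Quantile normalization, centred medians, the filter on dim probe sets, 1 probe set or the mean per gene, array weights and the trended and robust prior gave the same 4 counts. With all 12 arrays and 1 mean for both stages the genotype count was 0. That fit counts the difference between stages as spread, and it called 0.0427% of all probe sets lower, against 1.84% in the main fit. With the ovaries of both stages fitted alone the stage II against stage I count was 2, where 0.678% of all were called lower, against 4.92%. The cause of the lower counts was not tested. By deviations from own group mean, 9 same-numbered pairs of arrays had correlations from -0.15 to 0.21, with 3 above 0.1. Pairs of unlike number were not set beside them, so these values cannot decide whether the replicate numbers pair the samples. With the replicate block the counts were 3 for genotype, 0, 4 for stage II and 3 for stage II against stage I. The only signs that turned were those of Des 1426732_at, never called: the stage I difference of 0.036 became -0.036 with the replicate block, ran from -0.040 to 0.10 with single arrays left out (-0.0073 without control replicate 6) and was -0.057 without the 3 ovaries highest in Ovgp1, and genotype at -0.046 became 0.010 without control replicates 1 and 4. Array medians differ by less than 0.1, but the share of all probe sets called lower in stage II rose from 10.1% to 13.5% with quantile normalization and 12.5% with centred medians. Signal over background was not measured, which limits dim probe sets such as Myh11 and Des 1426732_at.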
